A study of Mus musculus with 9 samples.

Results

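The 10 genes described here encode ligands and receptors of the EGF receptor system, and their rows were taken by gene symbol from the deposited expression table of 24493 genes. All 10 were found: the ligand genes Hbegf, Areg, Tgfa, Btc, Ereg, Egf and Epgn, and the receptor genes Egfr, Erbb2 and Erbb3. They were measured by RNA sequencing in 9 libraries of mouse pancreatic tumor cells, 3 from the parental line, 3 from the derived line escape e1 and 3 from the derived line escape e2. The series describes both escape lines as resistant to immunotherapy. Every group had a C57BL/6 background, was grown in culture in DMEM with serum and received no treatment. The sources used here do not say how the escape lines were selected, whether each is a single clone, or which driver mutations the cells carry. The comparison of each escape line with the parental line asks how resistant cells differ in expression from the cells they came from, and the comparison of e2 with e1 asks how the resistant lines differ from each other.

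Ligands of this family are made as membrane-anchored precursors, and cell-surface proteases cut them to release the soluble growth factor. Binding makes the receptors pair, and the paired kinases pass the signal to the RAS-ERK and PI3K pathways. Erbb2 has no known ligand of its own and serves as a partner for the other receptors, while Erbb3 has little kinase activity and binds neuregulins. In the exocrine pancreas this system is known for its part in the conversion of acinar cells to duct-like cells.

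Levels are in TPM, which measures transcripts corrected for transcript length and relative to the library total, so levels can be set beside each other between genes. TPM keeps no read depth, and the depth of each library is therefore unknown. Each library had from 11188 to 12039 genes with a level of at least 1 TPM. Means are given ± SD over n = 3 libraries. Differences are log2 fold changes of TPM + 1 with their SE, a scale that compresses the change of genes near 0. The test was limma's, with Benjamini-Hochberg adjustment over 12769 genes, and an adjusted p under 0.05 counts as a call. Nothing in the labels says that libraries of 1 group are separate cultures, so p-values reflect only the spread between these libraries, which may be technical. Library 1 of e1 stood apart from the other e1 libraries, with a mean correlation to its own group of 0.987 against 0.991 for each of the other two, and the values it decides are given with and without it.

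The labelled cell type was checked against marker genes. All 10 ductal and epithelial markers had a mean of 1 TPM or more in parental cells, where their summed level ran from 8724 to 9902 TPM, against 6 of 10 in e1 (1185 to 1224 TPM) and 7 of 10 in e2 (1718 to 1783 TPM). Of these markers, 9 were lower in each escape line, and Sox9, a duct transcription factor gene, was higher, at 6.07, 17.6 and 41.4 TPM in parental, e1 and e2 cells. Mesenchymal markers summed to 733 to 1028 TPM in parental, 4398 to 4555 TPM in e1 and 4502 to 4702 TPM in e2 libraries. Of 10 fibroblast markers, 0 reached a mean of 1 TPM in parental cells (sum 0.680 to 1.03 TPM), 6 did in e1 (313 to 328 TPM) and 8 in e2 (315 to 327 TPM), with Lum listed at 0 in every library and Fap also at 0 in e1. Leukocyte markers summed to 2.52 to 3.28, 3.42 to 4.67 and 6.98 to 8.03 TPM in parental, e1 and e2 libraries, with Cd3e and Cd4 listed at 0 in all. Of these 12 markers, Cd68 had means of 1.72, 3.41 and 5.43 TPM in parental, e1 and e2 cells. Lyz2 was listed at 0 in parental and e1 libraries and had a mean of 1.25 TPM in e2. The other leukocyte markers had means under 1 TPM in every group, and Csf1r went the other way (0.825, 0.102 and 0.113 TPM). Endothelial markers summed to under 1 TPM in every library (0.170 to 0.885 TPM). Acinar and islet markers summed to 1.81 to 3.51 TPM in parental, 5.39 to 9.15 TPM in e1 and 15.4 to 17.3 TPM in e2 libraries, with Cela1 the 1 gene of 8 at a mean of 1 TPM or more and Cpa1, Prss1, Ins1, Ins2 and Gcg listed at 0 in all. Epithelial, mesenchymal, fibroblast, leukocyte and acinar marker sums thus moved with the groups compared below, and their part in the differences of the EGF receptor genes was not tested. In these bulk libraries, fewer cells of a type and less RNA per cell cannot be told apart.

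Ligand and receptor genes did not move as one. In e1, 3 ligand genes (Areg, Tgfa and Btc) and the receptor gene Erbb3 fell steeply, with Egfr and Erbb2 lower by smaller amounts and Ereg lower by a call that single libraries decide. In e2, the 3 receptor genes and the ligand genes Tgfa and Btc were lower than in parental cells, while Ereg was higher. Between the escape lines, 5 ligand genes, Erbb2 and Erbb3 were higher in e2 and Egfr was higher in e1. Of the 10 genes, 8 passed the filter of 1 TPM in at least 3 libraries and were tested. Erbb3 passed it through the 3 parental libraries and 1 e2 library, so its place among the tested genes rests mainly on the group where it is high. Against parental cells, e1 had 7 of the 8 lower and 0 higher, where 34.9% of all tested genes were lower and 35.7% higher, and without the call of Ereg, which ended in 6 of 18 alternative settings, 6 were lower. The same count in e2 was 5 lower and 1 higher, against 32.7% lower and 40.8% higher among all tested genes. In e2 against e1 there were 7 higher and 1 lower, against 40.6% higher and 29.7% lower among all tested genes. Both escape lines were compared with the same parental libraries.

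**Figure D1:**
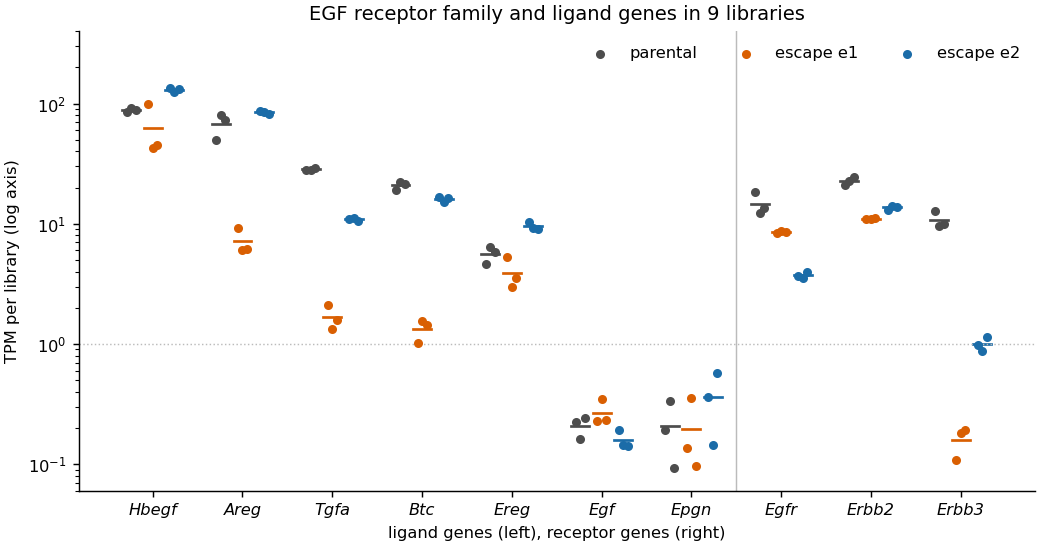
TPM of each gene in each of the 9 libraries on a log axis, with ligand genes left of the vertical line and receptor genes right of it. Points are libraries, short bars are group means and the dotted line marks 1 TPM. Areg, Tgfa and Btc are low in the 3 e1 libraries (1.03 to 9.14 TPM), the receptor genes are lower in both escape lines than in parental cells, and Egf and Epgn lie below 1 TPM throughout.

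Hbegf, which encodes heparin-binding EGF-like growth factor, a ligand of Egfr that heparan sulfate retains at the cell surface, was the most abundant of the 10 genes in each group. It lies on chromosome 18 (36504927 to 36515805, minus strand, GRCm38.p6 as are all positions here). Its level was 85.4, 92.2 and 87.9 TPM in the parental libraries, 98.8, 42.9 and 45.3 TPM in e1 and 133.7, 125.6 and 131.8 TPM in e2. All e2 libraries lay above all others, whereas e1 library 1 lay above the parental range and the other two e1 libraries lay below it. Hbegf did not pass in e1 against parental (-0.61 ± 0.27, adjusted p = 0.0748), nor in e2 against parental (0.55 ± 0.27, adjusted p = 0.0953), and it passed in e2 against e1 (1.16 ± 0.27, adjusted p = 0.00463). Without e1 library 1, Hbegf was lower in e1 than in parental cells by -0.99 (adjusted p = 9.41e-08, from that value to 0.225 over the alternatives). The e2 difference of 0.55 then passed as well (adjusted p = 2.08e-06, the lowest over the alternatives, up to 0.183), and it also passed when only parental and e2 libraries were fitted (9.26e-06).

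Areg encodes amphiregulin, a ligand of Egfr with weak receptor affinity, and lies on chromosome 5 (91139599 to 91148432, plus strand). It stood at 49.6, 81.0 and 72.5 TPM in parental libraries, at 9.14, 6.08 and 6.17 TPM in e1 and at 86.3, 85.5 and 82.7 TPM in e2. The e1 libraries were far below the other 6, and the e2 libraries lay just above the parental range. Areg fell in e1 from 67.7 ± 16.3 to 7.13 ± 1.74 TPM, a log2 fold change of -3.07 ± 0.18 (adjusted p = 3.43e-07), and the parental mean was 9.49 times the e1 mean. In e2 its mean was 84.8 ± 1.88 TPM, and the difference from parental cells did not pass (0.35 ± 0.18, 95% interval -0.06 to 0.77, adjusted p = 0.112). That value was 0.14 without parental library 1 and 0.22 with the rlog values. It passed without parental library 2 (0.49, adjusted p = 0.0467, 0.0467 to 0.411 over the alternatives). Between the escape lines, Areg was higher in e2 by 3.42 ± 0.18 (adjusted p = 2.55e-07), the largest difference in e2 against e1 among the 8 tested genes.

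Btc encodes betacellulin, which binds both Egfr and the receptor of Erbb4, and lies 208828 bases beyond Areg on chromosome 5 (91357261 to 91402994, minus strand). Its values were 18.9, 22.4 and 21.5 TPM in parental, 1.03, 1.55 and 1.44 TPM in e1 and 16.7, 15.2 and 16.5 TPM in e2 libraries. The 3 groups did not overlap, and e2 was close below the parental range while e1 was far below it. Btc fell by 3.23 ± 0.10 on the log2 scale in e1 (adjusted p = 3.62e-09), with a parental mean 15.7 times that of e1, and by 0.36 ± 0.10 in e2 (adjusted p = 0.0100). In e2 against e1 it was higher by 2.88 ± 0.10 (adjusted p = 1.87e-08).

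Areg and Btc are ligand genes of 1 chromosomal cluster that were both low in e1, and the bases just before their starts are printed for that reason, beside those of Egfr and Erbb2, which were lower in both escape lines. The sequences are from RefSeq on GRCm38.p6, read on the gene's own strand from 5′ to 3′, and stop before the first annotated exon base. They cover chr5:91139349-91139598 (Areg, plus strand), chr5:91402995-91403244 (Btc, minus strand), chr11:16751953-16752202 (Egfr, plus strand) and chr11:98412234-98412469 (Erbb2, plus strand). Capitals mark matches, on either strand, to the motifs whose letters are given after the sequences.
Areg: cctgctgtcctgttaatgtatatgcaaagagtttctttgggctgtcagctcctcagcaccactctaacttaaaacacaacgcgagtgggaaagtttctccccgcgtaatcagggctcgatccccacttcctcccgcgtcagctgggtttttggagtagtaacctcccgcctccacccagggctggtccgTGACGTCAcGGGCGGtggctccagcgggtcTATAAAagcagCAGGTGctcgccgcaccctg
Btc: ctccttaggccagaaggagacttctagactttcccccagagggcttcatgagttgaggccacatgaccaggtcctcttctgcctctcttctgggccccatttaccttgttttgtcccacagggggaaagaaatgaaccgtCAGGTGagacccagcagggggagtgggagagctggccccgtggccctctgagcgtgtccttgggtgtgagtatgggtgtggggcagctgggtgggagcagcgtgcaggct
Egfr: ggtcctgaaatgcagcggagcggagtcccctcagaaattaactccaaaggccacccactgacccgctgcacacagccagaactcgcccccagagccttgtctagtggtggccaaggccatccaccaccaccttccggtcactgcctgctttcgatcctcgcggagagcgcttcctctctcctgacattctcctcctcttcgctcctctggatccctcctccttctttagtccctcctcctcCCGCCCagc
Erbb2: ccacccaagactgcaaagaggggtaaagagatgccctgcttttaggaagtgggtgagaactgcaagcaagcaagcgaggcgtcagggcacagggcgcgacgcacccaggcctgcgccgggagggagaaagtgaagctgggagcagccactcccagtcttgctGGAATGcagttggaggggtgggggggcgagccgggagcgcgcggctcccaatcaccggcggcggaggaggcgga

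In the Areg window the cAMP response element, TGACGTCA, begins 61 bases before the start of the gene. Its GC box, with the letters GGGCGG, begins 52 bases before the start, and its TATA box, searched as TATAAA, begins 31 bases before it. An E-box of the kind bound by Zeb and Snail factors, searched as CACCTG and printed here from its opposite strand, begins 20 bases before the start. Of the other windows shown, that of Btc holds an E-box beginning 110 bases before the start, that of Egfr a GC box at 9 bases and that of Erbb2 a TEAD motif, GGAATG, at 88 bases. RefSeq windows were at hand for 7 of the 10 genes (Areg, Btc, Tgfa, Epgn, Egf, Egfr and Erbb2), of which Egf has 2, and motifs were counted in the 250 bases before each window's own start site. Those bases can hold annotated exon: they are free of it over 236 bases for Erbb2, 197 for Epgn, 96 for 1 Egf window and 66 for Tgfa. That Egf window and the Tgfa window start from sites inside their genes. The cAMP response element was in 1 of the 7 and in 1.55% of 32817 windows of the same length over all genes, the TATA box in 2 (Areg and Epgn) and in 12.4% of all windows. The GC box was in 3 (Areg and Egfr, and Tgfa with both of its matches in exon sequence inside the gene; 32.7% of all windows), the E-box in 4 (Areg, Btc, Epgn and Tgfa; 17.2%), the TEAD motif in 1 (12.6%) and the AP-1 site TGANTCA in 0 (6.75%). None of these motifs overlapped another in the windows printed, and such matches are descriptions of the letters, not of bound sites.

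Tgfa, on chromosome 6 (86195038 to 86275744, plus strand), encodes transforming growth factor alpha, a high-affinity ligand of Egfr. It stood at 28.2, 27.9 and 29.4 TPM in the parental libraries, at 2.09, 1.34 and 1.58 TPM in e1 and at 10.998, 11.1 and 10.6 TPM in e2. The groups were well apart, with e2 between the other two. Tgfa fell by 3.47 ± 0.10 on the log2 scale in e1 (adjusted p = 1.69e-09) and by 1.31 ± 0.10 in e2 (adjusted p = 1.33e-06), with parental means 17.0 and 2.61 times those of the escape lines. In e2 it was 2.17 ± 0.10 higher than in e1 (adjusted p = 7.92e-08).

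Ereg encodes epiregulin, a low-affinity ligand of Egfr and of the Erbb4 receptor, and lies 45949 bases before Areg (chromosome 5, 91074617 to 91093649, plus strand). Its level was 4.67, 6.44 and 5.82 TPM in parental, 5.25, 2.98 and 3.52 TPM in e1 and 10.3, 9.18 and 8.97 TPM in e2 libraries. The e2 libraries lay above all others, and parental and e1 libraries overlapped through e1 library 1. Ereg rose in e2 by 0.67 ± 0.16 against parental cells (adjusted p = 0.0046) and was 1.12 ± 0.16 higher in e2 than in e1 (adjusted p = 0.000199). The lower level in e1 than in parental cells (-0.45 ± 0.16, adjusted p = 0.0325) was a call that ended with a single library left out: without parental library 2 the value was -0.36 (adjusted p = 0.114), without parental library 3 -0.43 (0.0844), without e1 library 2 -0.31 (0.115) and without e1 library 3 -0.40 (0.0884). It also ended with the library number as a block (adjusted p = 0.0534) and with only the 2 groups fitted (0.0671). Without e1 library 1 the call held, with a larger fall (-0.64, adjusted p = 0.000793). Over all alternatives the adjusted p ran from 0.000793 to 0.115.

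Egf and Epgn were below 1 TPM in every library and did not enter the test. Egf, the epidermal growth factor gene on chromosome 3 (129677574 to 129755322, minus strand), had 0.222, 0.161 and 0.243 TPM in parental, 0.229, 0.345 and 0.231 TPM in e1 and 0.194, 0.144 and 0.142 TPM in e2 libraries. Parental and e1 values overlapped, as did parental and e2 values, while each e2 library lay below each e1 library. Epgn, which encodes the ligand epigen and opens the cluster on chromosome 5 (91027517 to 91035212, plus strand), ranged from 0.092 to 0.336 TPM in parental, from 0.0962 to 0.356 TPM in e1 and from 0.144 to 0.570 TPM in e2 libraries, with all groups overlapping. With no filter on low values, the e2 minus e1 difference of Egf was -0.13 ± 0.05 (adjusted p = 0.04998), and no other difference of either gene had an adjusted p under 0.273.

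Set together, the 7 ligand genes summed to 187, 230.4 and 217 TPM in parental libraries, to 117, 55.5 and 58.4 TPM in e1 and to 259, 247 and 251 TPM in e2. The e1 sums were all below the parental ones and the e2 sums all above them. Hbegf made up 42.0 ± 3.13% of the ligand sum in parental cells, 79.9 ± 4.18% in e1 and 51.7 ± 0.783% in e2. Areg held 31.7 ± 4.58, 9.79 ± 1.70 and 33.6 ± 0.897%, and Tgfa 13.6 ± 1.49, 2.30 ± 0.463 and 4.33 ± 0.145%, in the same order. Btc went from 9.91 ± 0.190% in parental cells to 2.04 ± 1.02% in e1 and 6.39 ± 0.215% in e2, while Ereg held 2.66, 5.30 and 3.76%. The e1 mixture was thus mostly Hbegf transcript, at 84.7, 77.2 and 77.7% in its 3 libraries. Library 1 of e1 was above both other e1 libraries for 4 of the 7 ligand genes (Areg, Ereg, Hbegf and Tgfa), by 2.24 times their mean for Hbegf, and below both for all 3 receptor genes.

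**Figure D2:**
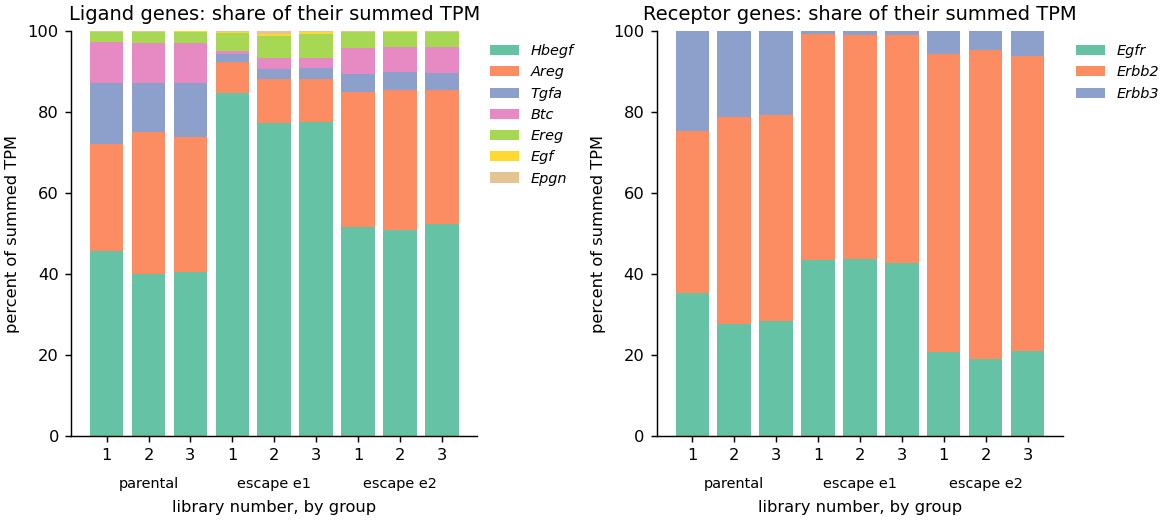
Share of each ligand gene in the summed TPM of the 7 ligand genes (left) and of each receptor gene in the summed TPM of the 3 receptor genes (right), 1 bar per library. Hbegf takes 77.2 to 84.7% of the ligand sum in e1 libraries, and Erbb3 takes 20.8 to 24.5% of the receptor sum in parental libraries and under 1% in e1 (0.556 to 0.956%).

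Among the receptors, Egfr, which encodes the EGF receptor that binds all 7 ligands, lies on chromosome 11 (16752203 to 16913907, plus strand). It stood at 18.3, 12.4 and 13.5 TPM in parental, 8.395, 8.64 and 8.50 TPM in e1 and 3.65, 3.54 and 4.0003 TPM in e2 libraries. The 3 groups were separate, in the order parental, e1, e2, with the widest spread in parental cells. Egfr fell by 0.71 ± 0.12 on the log2 scale in e1 (adjusted p = 0.000541) and by 1.72 ± 0.12 in e2 (adjusted p = 9.84e-07). It was lower in e2 than in e1 by -1.01 ± 0.12 (adjusted p = 5.26e-05), and of the 8 tested genes it was the one that was lower in e2 than in e1.

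Erbb2 lies on the same chromosome (98412484 to 98437716, plus strand) and had 20.9, 22.9 and 24.3 TPM in parental, 10.9, 10.97 and 11.3 TPM in e1 and 12.96, 14.2 and 13.9 TPM in e2 libraries. No groups overlapped, and e1 was the lowest. Erbb2 fell by 0.98 ± 0.07 in e1 (adjusted p = 9.88e-07) and by 0.69 ± 0.07 in e2 (adjusted p = 1.09e-05), both on the log2 scale, and the escape lines differed by 0.29 ± 0.07 (adjusted p = 0.00411, 0.18 with the rlog values).

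Erbb3, on chromosome 10 (128567523 to 128589635, minus strand), showed the widest range of the receptors. Its level was 12.7, 9.53 and 9.92 TPM in parental, 0.108, 0.181 and 0.191 TPM in e1 and 0.975, 0.874 and 1.14 TPM in e2 libraries. All e2 libraries lay above all e1 libraries, and both lines were far below parental cells. Erbb3 fell by 3.33 ± 0.11 on the log2(TPM + 1) scale in e1 (adjusted p = 5.37e-09) and by 2.55 ± 0.11 in e2 (adjusted p = 3.04e-08), with parental means 67.2 and 10.8 times those of the escape lines. In e2 it was 0.78 ± 0.11 higher than in e1 (adjusted p = 0.000152). Because the e1 level is near 0, the pseudocount sets the size of these values: with 0.1 in place of 1, the e1 difference from parental cells was -5.39 and the e2 minus e1 difference 2.09, which was 1.58 with the rlog values.

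The 3 receptor genes summed to 51.8, 44.8 and 47.8 TPM in parental libraries, to 19.4, 19.8 and 19.96 TPM in e1 and to 17.6, 18.6 and 19.0 TPM in e2. The receptor sums of both lines were thus close to each other and below the parental ones, but their makeup differed. The ratio of Egfr to Erbb2 TPM was 0.658 ± 0.188 in parental cells, 0.772 ± 0.0164 in e1 and 0.273 ± 0.0207 in e2. Erbb2 made up 47.4 ± 6.21% of the receptor sum in parental, 56.0 ± 0.514% in e1 and 74.3 ± 1.74% in e2 cells, and Erbb3 22.2 ± 2.05, 0.808 ± 0.219 and 5.42 ± 0.664%.

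**Figure D3:**
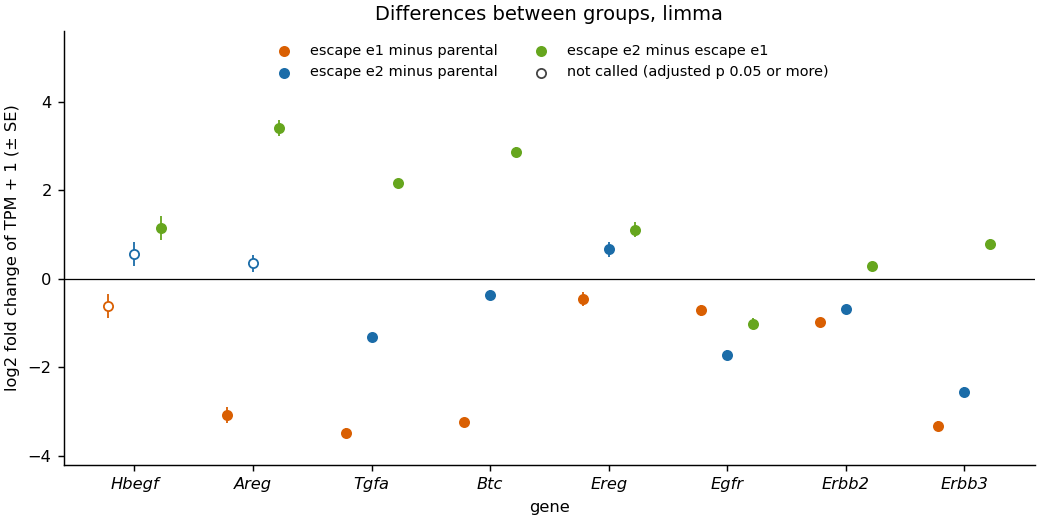
Log2 fold change of TPM + 1 for the 8 tested genes in each of the 3 comparisons, with SE bars, filled where the adjusted p was under 0.05 and open otherwise. The e1 points of Areg, Tgfa, Btc and Erbb3 lie between -3.07 and -3.47, and Egfr is the gene whose e2 minus e1 value is negative (-1.01).

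By mean level, the order in parental cells was Hbegf, Areg, Tgfa, Erbb2, Btc, Egfr, Erbb3 and Ereg, with Egf and Epgn last at 0.209 and 0.207 TPM. In e1 the receptors Erbb2 (11.03 ± 0.207 TPM) and Egfr (8.51 ± 0.123 TPM) came next after Hbegf (62.3 ± 31.6 TPM), and Erbb3 was last at 0.160 ± 0.0453 TPM. In e2, Hbegf (130.4 ± 4.26 TPM) and Areg were followed by Btc (16.1 ± 0.839 TPM), Erbb2 (13.7 ± 0.639 TPM) and Tgfa (10.9 ± 0.240 TPM). Some neighbours in these orders are not separated by their spread, such as Erbb2 (22.7 ± 1.74 TPM) and Btc (20.9 ± 1.81 TPM) in parental cells, or Egf and Epgn in all groups.

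Of the family's genes outside the 10, 1 receptor gene and 4 neuregulin genes, 2 passed the filter. Both were lower in e1, where 34.9% of all tested genes were lower, and 1 was lower in e2, against 32.7%. Erbb4, the remaining receptor gene, was listed at 0 in all 9 libraries. Nrg1, which encodes the Erbb3 and Erbb4 ligand neuregulin-1, had 12.5 ± 0.397 TPM in parental, 4.90 ± 0.842 TPM in e1 and 8.68 ± 0.344 TPM in e2 cells, and fell in e1 (-1.20 ± 0.10, adjusted p = 2.77e-06) and in e2 (-0.48 ± 0.10, adjusted p = 0.0015). Nrg2 fell in e1 from 3.89 ± 0.442 to 0.143 ± 0.0245 TPM (-2.09 ± 0.09, adjusted p = 4.78e-08), a value that was -4.04 with a pseudocount of 0.1. In e2, at 3.34 ± 0.370 TPM, Nrg2 did not pass (-0.17 ± 0.09, adjusted p = 0.132), but passed with median-ratio scaling (-0.25) and without parental library 1 (-0.25, adjusted p = 0.031, from that value to 0.368 over the alternatives). Nrg4 stood at 1.39, 1.12 and 0.813 TPM in parental libraries, between 0.0297 and 0.0851 TPM in e1 and between 0.0832 and 0.177 TPM in e2. Nrg3 was at or near 0 throughout, at most 0.0204 TPM.

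The ligand genes of chromosome 5 lie within 375478 bases, from the start of Epgn to the end of Btc. Their neighbours by position were described because of that closeness. The stretch, from Cxcl5 to Parm1, was bounded by named genes and not by a set distance. It was chosen with earlier results of these data known. Mthfd2l, a mitochondrial folate enzyme gene just before Epgn, had 16.4 ± 0.776 TPM in parental cells, fell in e1 to 8.75 ± 0.730 TPM (-0.84 ± 0.07, adjusted p = 3.98e-06) and stood at 14.7 ± 0.543 TPM in e2 (-0.15 ± 0.07, adjusted p = 0.0897, from 0.0287 with median-ratio scaling to 0.232 over the alternatives). Parm1, just beyond Btc, encodes a mucin-like membrane protein. Its parental level of 59.2 ± 1.82 TPM fell to 0.141 ± 0.0450 TPM in e1 (-5.72 ± 0.08) and to 2.67 ± 0.274 TPM in e2 (-4.04 ± 0.08). Of the CXC chemokine genes on the other side of Mthfd2l, Cxcl5, a neutrophil attractant, differed from parental cells by -5.002 ± 0.22 in e1 and -1.62 ± 0.22 in e2, and Ppbp, a platelet chemokine gene, by -5.04 ± 0.28 and -4.79 ± 0.28. Between the escape lines, Cxcl5 was 3.38 ± 0.22 higher in e2 (adjusted p = 8.35e-07), while Ppbp was near 0 in both, at 0.198 and 0.416 TPM. The neutrophil chemokine gene Cxcl3 had 13.6, 0.556 and 9.35 TPM in parental, e1 and e2 cells and fell in e1 (-3.20 ± 0.18), while its e2 call (-0.49 ± 0.18, adjusted p = 0.0321) ended in 5 alternative settings, with -0.35 and an adjusted p of 0.126 without parental library 1. Cxcl2, of the same kind, went the other way in e2, rising from 1.28 to 4.01 TPM (1.19 ± 0.22, adjusted p = 0.0008). In e1 it stood at 0.464 TPM (-0.60 ± 0.22, adjusted p = 0.0325), and the difference was -1.23 with a pseudocount of 0.1. That e1 call ended in 7 alternative settings, with -0.37 (adjusted p = 0.114) without parental library 1 and -0.48 (0.0948) without e1 library 1. The chemokine genes Pf4, Cxcl15 and Cxcl1 had means under 1 TPM in all groups and were not tested. Neighbours therefore differed in how far they moved: in e2, Areg and Btc had log2 differences from parental cells of 0.35 and -0.36 and Parm1 had -4.04.

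**Figure D4:**
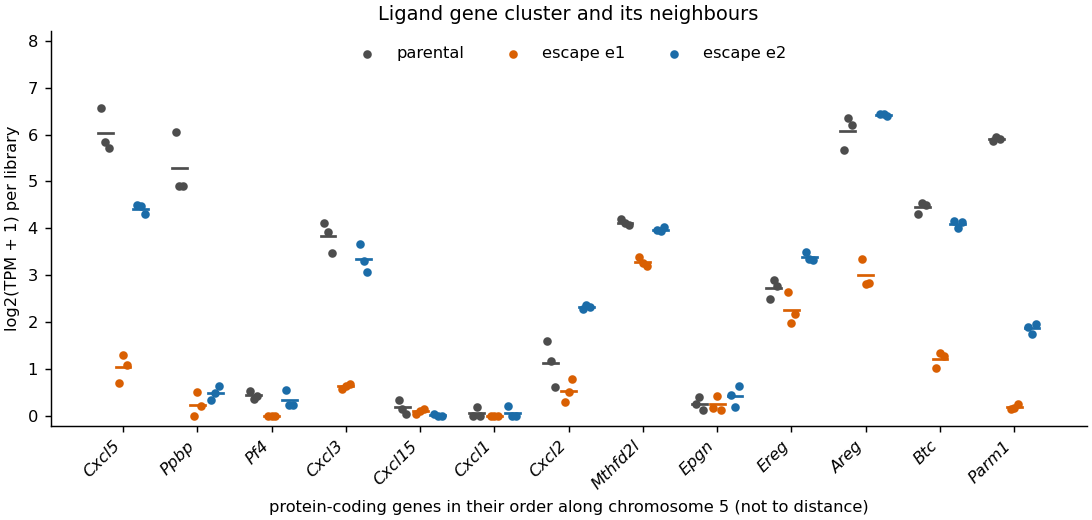
Levels of 13 protein-coding genes in their order along chromosome 5, from Cxcl5 to Parm1, as log2(TPM + 1) per library with group means as short bars. Areg and Btc are low in e1 and near the parental level in e2, whereas Parm1 is low in both escape lines.

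Beside Erbb2, the gene Grb7 encodes an adaptor protein that binds the Erbb2 receptor. Grb7 (chromosome 11, 98446834 to 98455373) starts 9118 bases beyond the end of Erbb2. It stood at 59.5, 58.6 and 57.7 TPM in parental, 0.0934, 0.0348 and 0.0331 TPM in e1 and 1.91, 2.04 and 1.82 TPM in e2 libraries, and the groups were far apart. Its log2 differences from parental cells were -5.82 ± 0.07 in e1 (adjusted p = 1.37e-11) and -4.35 ± 0.07 in e2 (adjusted p = 5.44e-11), several times those of Erbb2. Mien1, whose annotated span (98437708 to 98458230) contains Grb7 and touches the end of Erbb2, had 68.9 ± 3.92, 48.2 ± 7.78 and 77.3 ± 1.86 TPM in parental, e1 and e2 cells. Its difference was -0.52 ± 0.11 in e1 (adjusted p = 0.00166) and 0.17 ± 0.11 in e2, which did not pass (adjusted p = 0.181) except with only the 2 groups fitted (0.018) or without e1 library 1 (0.00953, up to 0.541 over the alternatives). Reads of overlapping genes can be split between them, so values of Mien1 and Grb7 are less certain. On the other side of Erbb2, Pgap3 (98388672 to 98401196) had 3.55, 3.26 and 4.95 TPM in parental, e1 and e2 cells. Pgap3 did not pass in e1 (-0.11 ± 0.12, adjusted p = 0.453) and was higher in e2 (0.39 ± 0.12, adjusted p = 0.0154).

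The genes whose pattern over the 9 libraries was most like each of these were found as those with the smallest root mean square difference in log2(TPM + 1) after each gene's own mean was subtracted. The search covered 7 tested genes whose group means spanned at least 1, which left out Erbb2 (span 0.98). For Areg they were St3gal1 (0.25), Armcx3 (0.28) and Slc9a2 (0.28), and for Btc Tcf24 (0.086), Mfsd6 (0.13) and Maob (0.13). For Tgfa they were Nrarp (0.12), Ly6a (0.17) and Rassf6 (0.18), with mean levels of Nrarp at 28.7, 1.74 and 10.4 TPM in parental, e1 and e2 cells beside 28.5, 1.67 and 10.9 TPM for Tgfa. Egfr was nearest to Rpia (0.15), Zfhx4 (0.15) and Ubr1 (0.16), and Erbb3 to Gpr85 (0.088), Tspan13 (0.11) and Rasgrp3 (0.11). Ereg was nearest to Snapc3 (0.095), Uggt1 (0.11) and Eea1 (0.13). Hbegf was nearest to Oasl1 (0.095), Dock8 (0.13) and Etv4 (0.14), and Etv4 is also among the ERK output genes described next. Like Hbegf, these genes were high in e1 library 1 beside libraries 2 and 3. Oasl1 had 16.6 against 6.68 and 6.15 TPM, Dock8 8.76 against 4.25 and 4.18 TPM, and Etv4 41.9 against 22.2 and 23.2 TPM. Their likeness to Hbegf thus rests in part on e1 library 1. The genes nearest to Ereg were likewise higher in that library. Snapc3 had 17.2 against 10.8 and 10.9 TPM, Uggt1 22.2 against 16.1 and 16.7 TPM, and Eea1 11.3 against 9.14 and 8.70 TPM. For no member was the search run without that library. None of these nearest genes was another of the 10.

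Genes that act with the receptors were taken from lists of the pathway's parts. The counts of every list stand beside the shares over all tested genes. These were 35.7% higher and 34.9% lower in e1, and 40.8% higher and 32.7% lower in e2. In e2 against e1 they were 40.6% higher and 29.7% lower. Whether a list departs from these shares was not tested. The list medians stand beside 0.02 in e1 and 0.07 in e2 over all tested genes. Among 9 tested genes of ligand shedding and trafficking, 3 were higher and 5 lower in e1 (median -0.18, against 0.02 over all tested genes), and 4 were higher and 3 lower in e2 (median -0.01, against 0.07). Adam17, the main protease that sheds Areg, Tgfa, Hbegf, Ereg and Epgn, rose from 21.8 to 32.4 TPM in e1 (0.55 ± 0.06, adjusted p = 2.75e-05) and to 33.5 TPM in e2 (0.60 ± 0.06, adjusted p = 1.42e-05). Adam10, which sheds Egf and Btc, rose in e2 (0.48 ± 0.05) and was lower in e1 (-0.18 ± 0.05, adjusted p = 0.0107). Adam9 fell in both lines (-0.48 ± 0.06 and -0.92 ± 0.06), Adam15 rose in both (0.77 ± 0.05 and 0.48 ± 0.05), and Rhbdl2, a membrane protease of the rhomboid family, fell by 1.82 ± 0.07 in e1 and by 0.29 ± 0.07 in e2. Adam12 was lower in e2 (-1.49 ± 0.22, adjusted p = 0.000183). It was also lower in e1 (-0.58 ± 0.22, adjusted p = 0.0386), where its libraries overlapped the parental ones.

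Of 6 tested genes for co-receptors and membrane partners, 3 were higher and 2 lower in e1 (median 0.51), and 4 were higher and 2 lower in e2 (median 0.73). Cd44, whose heparan sulfate forms hold Hbegf protein, rose from 119 TPM to 240 TPM in e1 (0.99 ± 0.12, adjusted p = 5.54e-05) and to 334 TPM in e2 (1.48 ± 0.12, adjusted p = 2.89e-06). The glypican gene Gpc1 rose by 1.52 ± 0.05 and 2.11 ± 0.05. Cd9, a tetraspanin partner of membrane Hbegf, rose in e2 (0.85 ± 0.14). It did not pass in e1 (0.17 ± 0.14, adjusted p = 0.287), except without e1 library 1 (0.37, adjusted p = 0.000133, from that value to 0.689 over the alternatives). Muc1, a membrane mucin that binds Egfr and is also one of the epithelial markers, fell in both lines, with log2 differences of -7.03 ± 0.07 in e1 and -5.63 ± 0.07 in e2.

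Of 16 tested genes that attenuate the receptors, 9 were higher and 4 lower in e1 (median 0.27), and 9 were higher and 3 lower in e2 (median 0.25). Lrig1, which promotes degradation of the receptors, rose from 17.3 to 47.7 TPM in e1 (1.41 ± 0.07, adjusted p = 1.31e-07) and to 54.3 TPM in e2 (1.6003 ± 0.07, adjusted p = 4.76e-08). Errfi1, an inhibitor of the Egfr kinase that is induced by its signalling, rose by 0.75 ± 0.13 in e1 and by 0.68 ± 0.13 in e2. Socs5 rose from 19.1 TPM to 27.1 TPM in e1 (0.48 ± 0.07) and to 92.0 TPM in e2 (2.21 ± 0.07). Cblc, an epithelial ubiquitin ligase of the Cbl family, had a mean of 32.4 TPM in parental cells, was listed at 0 in all e1 libraries and had a mean of 0.734 TPM in e2. The phosphatase gene Ptpn12 fell by 1.32 ± 0.06 in e1. Cbl and Cblb, of the same family as Cblc, were lower in e2 (-0.82 ± 0.18, adjusted p = 0.00231, and -0.81 ± 0.10, adjusted p = 3.72e-05). In e1, Cblb was lower (-0.37 ± 0.10, adjusted p = 0.00586) and Cbl did not pass (0.06 ± 0.18, adjusted p = 0.79).

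In the list of adaptors and the RAS-ERK cascade, all 18 genes were tested, with 5 higher and 7 lower in e1 (median 0.03) and 3 higher and 6 lower in e2 (median -0.07). The adaptor gene Gab2 fell from 6.45 TPM to 0.891 TPM in e1 (-1.98 ± 0.08) and to 3.05 TPM in e2 (-0.88 ± 0.08), and Shc1 rose by 1.03 ± 0.09 and 0.46 ± 0.09. Rasa1, which switches RAS off, rose in e2 from 15.6 to 64.4 TPM (1.98 ± 0.08, adjusted p = 1.44e-08) and by 0.34 ± 0.08 in e1.

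Of 10 genes commonly used as a readout of ERK pathway output, 0 were higher and 5 lower in e1 (median -0.35), 3 were higher and 2 lower in e2 (median -0.0048), and in e2 against e1 there were 6 higher and 1 lower (median 0.62, against 0.09 over all tested genes). The count of 0 higher in e1 depended on the setting: Dusp4 (0.24) passed with the replicate block (adjusted p = 0.0196, from that value to 0.245 over the alternatives), without parental library 1 and without e1 library 2, and Spry4 (0.27) passed without e1 library 2 (adjusted p = 0.0465, up to 0.43). Ccnd1, the cyclin D1 gene, had 456 TPM in parental cells, fell to 247 TPM in e1 (-0.88 ± 0.08, adjusted p = 4.76e-06) and rose to 779 TPM in e2 (0.78 ± 0.08, adjusted p = 1.09e-05). The sprouty gene Spry4 rose in e2 (1.46 ± 0.15), as did the ERK phosphatase gene Dusp4 (0.95 ± 0.12). Their relatives in the list did not rise in e2. Spry2 was lower in e2 (-0.30 ± 0.09, adjusted p = 0.0138) and in e1 (-0.24 ± 0.09, adjusted p = 0.0347). Dusp6 was lower in e1 (-0.61 ± 0.11, adjusted p = 0.000646) and did not pass in e2 (-0.04 ± 0.11, adjusted p = 0.774). Phlda1 fell in e1 (-0.77 ± 0.10), and Epha4, an ephrin receptor gene, fell in both lines (-1.18 ± 0.09 in e1 and -2.70 ± 0.09 in e2). Etv4, a transcription factor gene induced by ERK, did not pass against parental cells in e1 (-0.45 ± 0.19, adjusted p = 0.0641) or in e2 (0.46 ± 0.19, adjusted p = 0.0579), and was higher in e2 than in e1 (0.90 ± 0.19, adjusted p = 0.00228). Without e1 library 1, both of those differences passed (-0.73 with adjusted p = 4.13e-07, and 0.46 with 4.56e-06), with highest values over the alternatives of 0.212 and 0.158. The e2 difference also passed with the 10 highest genes removed (0.0454), with only the 2 groups fitted (2.07e-05), and without e1 library 2 (0.0389) or 3 (0.04998).

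**Figure D5:**
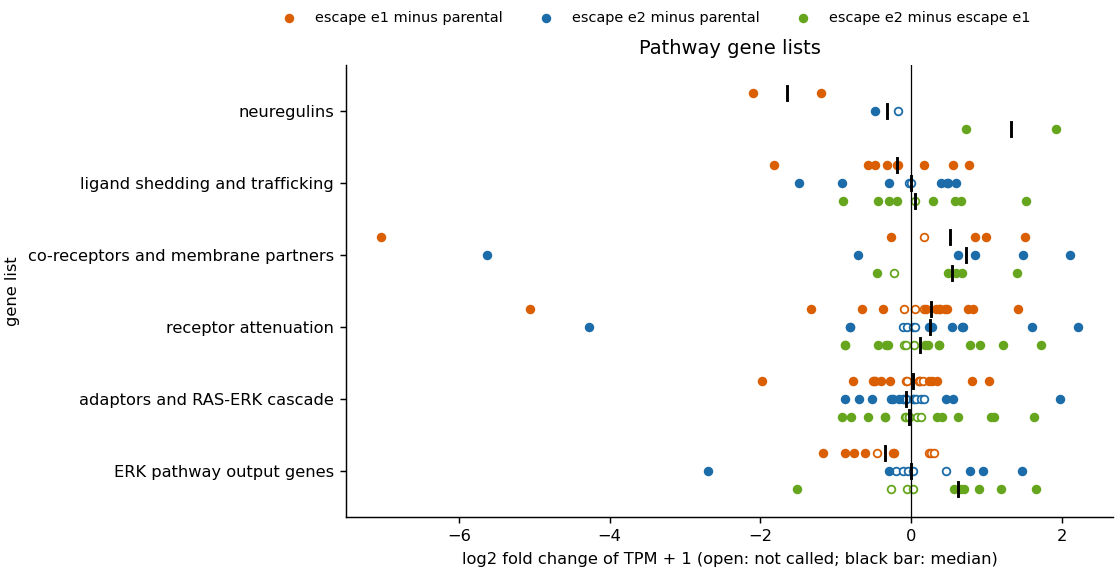
Log2 fold changes of TPM + 1 for the tested genes of 6 pathway lists in the 3 comparisons, filled where called, open where not, with the median of each as a black bar. The ERK output genes have medians of -0.35 in e1 and -0.0048 in e2 against parental cells and 0.62 in e2 against e1.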

How the data were processed

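The 9 libraries were made from total RNA and sequenced by a company, per the labels' protocols, and sample titles gave groups and library numbers. The authors deposited TPM per gene and library, and log2 values from the rlog transform, with Salmon, DESeq2 and the mm10 build named per the submitters' processing notes. Their versions, annotation and strand setting: not given in the sources used here.

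Of 24493 genes, the 12769 that reached 1 TPM in 3 or more libraries were tested on log2(TPM + 1) with limma 3.58.1 in R 4.3.3: 3 group means, no block, mean-variance trend, robust empirical Bayes, two-sided contrasts, and Benjamini-Hochberg adjustment over all genes tested. The steps were tested on simulated data. Positions and promoter windows are from RefSeq tables of GRCm38.p6, the assembly of mm10, and exons from GENCODE.

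The 10 members and all lists were chosen with earlier results of these data known. The naming rule takes every member, Erbb4 and the neuregulins, up to 3 called genes per list, direction and comparison, and the 3 genes most alike in pattern per member. The text names fewer. The neighbours of Erbb2 and of the ligand cluster, the marker genes and Dusp6 are named outside it. So are Cbl, Cd9, Etv4, Dusp4 and Spry4 where not called. The alternatives tried were leaving out each library, fitting 2 groups alone, the library number as a replicate block, no trend or robust fit, the rlog values, scaling by median ratios, the 10 highest genes removed, 5 TPM as the filter or none, and 0.1 as the pseudocount.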

Additional observations from a re-analysis of the deposited data

Results flagged for a closer look

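The changes of the escape lines from the same parental libraries differed for all 8 tested genes, by the test of e2 minus e1 on the log2(TPM + 1) scale. Calls were common in that comparison, with 40.6% of all 12769 tested genes higher and 29.7% lower. Among the ligand genes the difference was 3.42 for Areg, 2.88 for Btc, 2.17 for Tgfa, 1.16 for Hbegf and 1.12 for Ereg. Among the receptor genes it was 0.78 for Erbb3, 0.29 for Erbb2 and -1.01 for Egfr, the 1 gene that was lower in e2.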

How the results depend on the processing

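Over 18 alternative settings, the 8 tested members kept their direction in all 3 comparisons. The number called ran from 6 to 8 in e1 against parental, from 6 to 7 in e2 against parental and from 8 to 9 in e2 against e1, the ninth being Egf with no filter. Of 432 reruns of single member values, 6 lost a call, all for Ereg in e1, and 4 gained one, for Hbegf 3 times and for Areg in e2 once, as given with those genes. Over all genes, 9014 were called in e1 (7548 to 10152), 9383 in e2 (7795 to 10908) and 8981 between the lines (7630 to 10038).

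With the library number as a replicate block, 8742, 9163 and 8740 genes were called in these comparisons, and the Ereg call in e1 ended (adjusted p = 0.0534). Deviations of same-numbered libraries from their group means correlated from -0.13 to 0.0499, and parental library 1 correlated more with e1 library 2 (0.112) than with e1 library 1. These values show no sign of pairing by number. With 3 libraries per group, weak correlations cannot decide whether libraries were made in pairs, and the labels do not say.

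Signs changed for 2 uncalled values of e2 minus e1: Adam17 (0.047) was -0.051 after median-ratio scaling and -0.045 in the rlog fit, and Errfi1 (-0.07) ran from -0.15 to 0.087 when single libraries were left out. The filter of 5 TPM removed Nrg2 and Cxcl2, which therefore had no value there. TPM gives no depth, so no counting error or detection limit can be set for Egf, Epgn or Erbb3 in e1.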
